A study of Homo sapiens with 12 samples.

Results

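Cholesterol and fatty acid synthesis was described as a set of 34 genes in LN229, an established human glioblastoma cell line, on 12 arrays of whole-transcript RNA. A member was taken as measured when the array annotation paired at least 1 probe set with its symbol alone, and its probe set of highest mean value represented it. That gave 28 of 34 members among 14232 genes: 14 of the sterol branch, 5 regulators and transport genes, and 9 of the fatty acid branch. ACAT2, CYP51A1, HSD17B7, SREBF2 and ELOVL5 had only probe sets annotated with several symbols, FDFT1 had no single-symbol probe set, and these 6 genes were not analysed here. Each group held 3 arrays: cells in 1% oxygen (hypoxia) with HIF-1A siRNA, with HIF-2A siRNA or with non-targeting siRNA, and cells in 20% oxygen (normoxia) with non-targeting siRNA. All 4 groups were transfected, and the exposure lasted 16 h in each. HIF-1A and HIF-2A, encoded by HIF1A and EPAS1, are the subunits of hypoxia-inducible factor that oxygen destabilises, and the design addresses which hypoxic changes need each subunit. A single cell line was used, each siRNA appears in the labels under its target's name only, and no normoxic group carried a HIF siRNA. Nothing in the labels says whether replicates were separate cultures, and the spread behind the p-values may therefore be technical. In these bulk samples, fewer cells making a transcript and less of it per cell cannot be told apart.

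Cholesterol is built from acetyl-CoA through mevalonate, farnesyl diphosphate, squalene and lanosterol, and fatty acids are built from the same acetyl-CoA through malonyl-CoA. Both branches are transcribed under the sterol regulatory element binding proteins (SREBPs), membrane-bound factors that SCAP escorts to the Golgi for cleavage when sterols run low and that INSIG proteins hold back in the endoplasmic reticulum when sterols are plentiful. Squalene epoxidase, sterol oxidases and fatty acid desaturases use molecular oxygen as a substrate. Glioblastoma cells are known to depend strongly on cholesterol supply and on SREBP activity.

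Each value below is the deposited log2 expression of a probe set, read within that probe set only. Differences are log2 differences from a limma fit over all 12 arrays, with its standard error (SE) and 95% interval, and calls required an adjusted p below 0.05 after Benjamini-Hochberg adjustment over the 14232 genes. Array medians lay between 6.49 and 6.82. HIF-1A siRNA replicate 3 stood apart, with an upper quartile of 7.88, against 8.20 to 8.57 on the other 11 arrays. HIF1A measured 8.20, 9.06 and 7.74 with HIF-1A siRNA, against 11.72, 11.40 and 11.26 with non-targeting siRNA in hypoxia, which left 11.4% of its level. EPAS1 measured 7.18, 6.99 and 7.18 with HIF-2A siRNA, against 9.74, 9.57 and 9.83 with non-targeting siRNA, which left 16.6%. EPAS1 was also lower with HIF-1A siRNA (8.60, 8.08 and 8.02, a difference of -1.48, adjusted p = 0.00031), so both subunits' transcripts were lower in that group. Of 9 measured glial markers, VIM, NES, CD44, S100B and FABP7 were above the upper quartile on every array. The astrocyte filament GFAP (6.11 to 6.64), OLIG2 and NFIA were above it on none, and EGFR on 3 arrays. Markers of other cell types were mixed. Below the lower quartile on every array lay 2 of 5 microglia and blood markers (PTPRC and AIF1), 1 of 4 endothelial markers (PECAM1) and 2 of 5 epithelial markers (EPCAM and CDH1). The keratins KRT8 (10.85 to 11.64) and KRT18 (9.28 to 9.73) lay above the upper quartile on every array, and CD14, CDH5, VWF, CLDN5 and KRT19 lay above the lower quartile on every array. None of the 14 markers measured from these lists was called in hypoxia or with HIF-1A siRNA. Of the measured neuron and oligodendrocyte markers, CNP (9.87 to 10.48) lay above the upper quartile on every array, SYT1 on 6 and the others on none.

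Hypoxia lowered much of the set. With non-targeting siRNA, 16 of 28 measured members were lower in hypoxia than in normoxia and 1, INSIG2, was higher, where 8.95% of all genes were called lower and 3.37% higher. The median difference of the 28 was -0.51, against -0.03 over all genes. The 3 hypoxic values lay all below the 3 normoxic ones for 22 members, where 26.3% of all genes did so, and all above for 3 members, where 12.1% did. Of the sterol branch 10 of 14 members fell, with a median difference of -0.61. Of the fatty acid branch 4 of 9 fell, with a median of -0.36. No member of either branch was called higher. The difference between the branches was not tested, and after quantile normalization the medians were -0.48 in the sterol branch and -0.21 in the fatty acid branch.

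**Figure D1:**
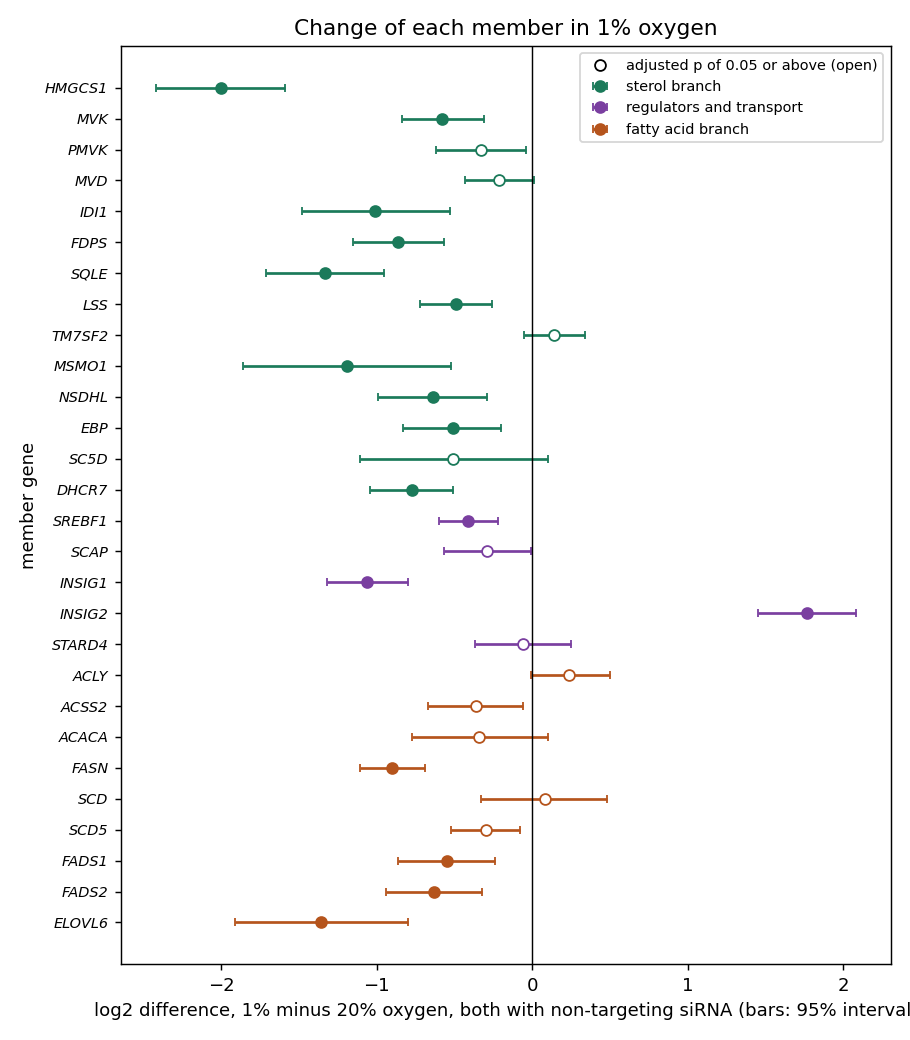
Log2 difference of each measured member between 1% and 20% oxygen, both with non-targeting siRNA (horizontal axis), with 95% intervals. Filled points passed an adjusted p of 0.05: 10 sterol members, 4 fatty acid members, INSIG1 and SREBF1 lie left of 0 and INSIG2 alone lies right of it.

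Among the regulators, the pair of INSIG genes moved in opposite directions. INSIG1 encodes a retention protein of SCAP whose own gene is a known SREBP target. It measured 8.46, 8.26 and 8.19 in hypoxia with HIF-1A siRNA, 8.81, 8.76 and 8.89 with HIF-2A siRNA, and 8.75, 8.38 and 8.52 with non-targeting siRNA, against 9.72, 9.52 and 9.58 in normoxia. All 9 hypoxic values lay below the 3 normoxic ones. With non-targeting siRNA the hypoxic level was 48.0% of the normoxic level (difference -1.06, SE 0.12, adjusted p = 0.00035). INSIG2, the second retention protein, measured 8.53, 8.67 and 8.13 in hypoxia with HIF-1A siRNA, 10.39, 10.22 and 10.41 with HIF-2A siRNA, and 10.33, 10.12 and 10.24 with non-targeting siRNA, against 8.62, 8.45 and 8.31 in normoxia. Its 6 hypoxic values without HIF-1A siRNA were all above 10, and those with HIF-1A siRNA overlapped the normoxic range. The hypoxic rise of INSIG2 with non-targeting siRNA was 3.41-fold (difference 1.77, SE 0.14, adjusted p = 3.5e-05).

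SREBF1, which encodes SREBP-1, measured 8.08, 8.10 and 8.01 with HIF-1A siRNA, 8.13, 8.05 and 7.98 with HIF-2A siRNA, and 8.17, 8.13 and 8.06 with non-targeting siRNA in hypoxia, against 8.44, 8.60 and 8.54 in normoxia. The 3 hypoxic groups overlapped one another and all lay below normoxia, and the fall with non-targeting siRNA was called (difference -0.41, SE 0.09, adjusted p = 0.0118). SREBF1 lost that call under quantile normalization (-0.26, adjusted p = 0.173) and cyclic loess (-0.25, adjusted p = 0.156), and without normoxia replicate 2 or 3 (adjusted p = 0.0539 and 0.0521), over a range of 0.00084 to 0.173 in 21 alternatives. SCAP, the escort protein, measured 8.86, 8.43 and 8.43 with HIF-1A siRNA, 8.53, 8.40 and 8.36 with HIF-2A siRNA, and 8.26, 8.41 and 8.55 with non-targeting siRNA, against 8.65, 8.67 and 8.77 in normoxia, and was not called (difference -0.29, adjusted p = 0.184). STARD4, a carrier that moves cholesterol between membranes, measured 9.66, 9.49 and 9.81 with non-targeting siRNA in hypoxia, against 9.74, 9.69 and 9.72 in normoxia, and these values overlapped (difference -0.06, adjusted p = 0.865).

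The first RefSeq promoter windows of INSIG1 and INSIG2 (GRCh38.p14, 250 bases before to 50 after the start) are shown because these genes moved apart, and they were chosen after their values were seen. INSIG1 lies on the plus strand at chr7:155297628-155297927 and INSIG2 on the plus strand at chr2:118088221-118088520. Capitals mark CCAAT, the core letters of the NF-Y site, in INSIG1, and ACGTG or GCGTG, the core letters of the hypoxia response element, in INSIG2, on either strand.
INSIG1: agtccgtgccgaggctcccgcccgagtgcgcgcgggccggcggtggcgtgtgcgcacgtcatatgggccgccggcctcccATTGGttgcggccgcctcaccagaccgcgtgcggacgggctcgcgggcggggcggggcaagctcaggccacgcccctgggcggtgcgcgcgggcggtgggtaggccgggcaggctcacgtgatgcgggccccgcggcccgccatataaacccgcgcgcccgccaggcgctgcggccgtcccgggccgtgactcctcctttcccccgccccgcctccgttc
INSIG2: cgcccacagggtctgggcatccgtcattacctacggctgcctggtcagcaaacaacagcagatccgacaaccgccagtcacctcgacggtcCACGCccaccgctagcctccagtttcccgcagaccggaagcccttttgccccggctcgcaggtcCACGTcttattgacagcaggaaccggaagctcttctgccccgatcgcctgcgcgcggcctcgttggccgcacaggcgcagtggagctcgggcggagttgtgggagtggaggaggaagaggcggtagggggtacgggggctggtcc
The INSIG1 window held 1 CCAAT match and also 6 matches to ACGTG or GCGTG. Overlapping matches were counted, so CACGTG, which reads the same on both strands, gave 2 of the 6. The INSIG2 window held no CCAAT and 2 matches to the hypoxia core letters, which began between -159 and -95 from the start. Such core letters are common: ACGTG or GCGTG stood in 48.4% of 35116 promoter windows of the same length.

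In the sterol branch HMGCS1 and SQLE fell most. HMGCS1 makes HMG-CoA, the entry to mevalonate. It measured 7.30, 7.29 and 6.83 in hypoxia with HIF-1A siRNA, 7.19, 7.16 and 7.56 with HIF-2A siRNA, and 7.12, 6.53 and 6.75 with non-targeting siRNA, against 9.02, 8.69 and 8.70 in normoxia. Hypoxia with non-targeting siRNA left 25% of the normoxic level, with 95% bounds of -2.42 and -1.59 on the log2 difference. SQLE, the oxygen-using epoxidase of squalene, measured 9.51, 9.16 and 8.75 with HIF-1A siRNA, 9.51, 9.32 and 9.59 with HIF-2A siRNA, and 9.28, 9.0 and 9.27 with non-targeting siRNA, against 10.64, 10.45 and 10.44 in normoxia. All hypoxic values of both genes lay below all normoxic values, and SQLE kept 39.8% of its normoxic level with non-targeting siRNA (adjusted p = 0.00088).

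IDI1 isomerises isopentenyl diphosphate, the building block of farnesyl diphosphate. It measured 7.96, 8.40 and 7.51 with HIF-1A siRNA, 8.24, 7.97 and 8.42 with HIF-2A siRNA, and 8.42, 7.92 and 7.96 with non-targeting siRNA in hypoxia, against 9.23, 8.99 and 9.11 in normoxia. Its 9 hypoxic values lay below the normoxic ones, and 49.7% of the level was left with non-targeting siRNA (difference -1.01, SE 0.22, adjusted p = 0.0123). FDPS, the farnesyl diphosphate synthase (-0.86, adjusted p = 0.00217), and MVK, mevalonate kinase (-0.58, adjusted p = 0.01), were also lower. PMVK and MVD, the phosphomevalonate kinase and the decarboxylase that follow MVK, differed by -0.33 and -0.21 and were not called (adjusted p = 0.142 and 0.226). Of the 7 measured genes between acetyl-CoA and squalene epoxide, 5 were thus lower.

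Past squalene epoxide 5 of 7 measured members fell. MSMO1, an oxygen-using oxidase that removes methyl groups from lanosterol-derived sterols, measured 8.82, 8.89 and 7.69 with HIF-1A siRNA, 9.03, 8.54 and 9.34 with HIF-2A siRNA, and 9.21, 8.62 and 8.90 with non-targeting siRNA in hypoxia, against 10.28, 9.95 and 10.07 in normoxia. HIF-1A siRNA replicate 3 was its lowest array, and all 9 hypoxic values lay below normoxia (difference with non-targeting siRNA -1.19, SE 0.31, adjusted p = 0.0276). DHCR7, the last reductase before cholesterol (-0.77, adjusted p = 0.00244), NSDHL, a sterol dehydrogenase (-0.64, adjusted p = 0.0226), EBP, the sterol isomerase (-0.51, adjusted p = 0.0399), and LSS, which closes squalene epoxide to lanosterol (-0.49, adjusted p = 0.0113), were lower too. SC5D, a sterol desaturase, differed as much as EBP (-0.51) but with an SE of 0.27 and was not called (adjusted p = 0.295). It was called lower in a fit of the compared groups alone (-0.51, adjusted p = 0.0401) and with array weights (-0.50, adjusted p = 0.0423), over 0.0401 to 0.587 in 21 alternatives. TM7SF2, a sterol reductase, measured 7.15, 7.24 and 7.13 in hypoxia, against 7.08, 7.08 and 6.93 in normoxia, and was not called (0.14, adjusted p = 0.367).

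Some of these calls were narrow. Leaving out hypoxia non-targeting replicate 2 or 3, or any 1 of the 3 normoxia arrays, ended the calls of MSMO1 (adjusted p = 0.0567 to 0.112), NSDHL (0.0678 to 0.0822) and the desaturase FADS1 (0.0744 to 0.108), with differences between -1.27 and -0.51. EBP lost its call without any 1 of the 6 arrays compared or without HIF-2A siRNA replicate 3 (adjusted p = 0.0517 to 0.152). IDI1 lost it without hypoxia non-targeting replicate 2 (adjusted p = 0.0585) or normoxia replicate 1 (0.0567). The count of members called lower was 10 without normoxia replicate 1 and also without normoxia replicate 3, and 11 without hypoxia non-targeting replicate 2 or 3 or normoxia replicate 2. HMGCS1, MVK, FDPS, SQLE, LSS, DHCR7, INSIG1, INSIG2, FASN and ELOVL6 kept their calls in all 21 alternatives.

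The first RefSeq windows of HMGCS1 (minus strand, chr5:43313363-43313662) and MSMO1 (plus strand, chr4:165327419-165327718) are shown because these sterol enzymes fell together and were among the largest falls. Capitals mark CCAAT on either strand, so ATTGG is the same letters on the opposite strand.
HMGCS1: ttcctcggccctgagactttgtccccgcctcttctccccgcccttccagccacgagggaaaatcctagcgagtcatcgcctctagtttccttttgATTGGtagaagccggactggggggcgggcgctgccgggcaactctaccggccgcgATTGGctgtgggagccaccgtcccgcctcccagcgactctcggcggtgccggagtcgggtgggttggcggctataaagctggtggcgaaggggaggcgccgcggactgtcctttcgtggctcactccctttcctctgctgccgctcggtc
MSMO1: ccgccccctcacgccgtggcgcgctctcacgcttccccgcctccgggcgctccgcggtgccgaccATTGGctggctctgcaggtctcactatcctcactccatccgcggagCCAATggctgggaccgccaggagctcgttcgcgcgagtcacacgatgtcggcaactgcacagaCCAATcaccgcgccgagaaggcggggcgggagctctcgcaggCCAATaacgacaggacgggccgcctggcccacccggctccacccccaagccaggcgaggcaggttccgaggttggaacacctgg
The first of 2 HMGCS1 windows held 2 matches, beginning at -155 and -100 from the start, and the second held 0. The single MSMO1 window held 4 between -185 and -34. RefSeq windows were found for 26 of the 28 measured members, 37 windows in all. CCAAT stood in 64.9% of these, against 34.6% of all 35116 windows. In the sterol branch 12 of 13 genes had it in at least 1 window, against 39.7% of 27305 genes with windows. Of the windows of members that fell in hypoxia 63.2% held CCAAT, and of those of the other members 66.7%. The sterol regulatory element letters TCACNCCAC, searched on both strands, stood in 0 of 37 member windows and in 1.13% of all windows, which says only that these exact letters are not in this stretch. ACGTG or GCGTG stood in 81.1% of the member windows, against 48.4% of all windows. It stood in 78.9% of the windows of members that fell in hypoxia and in 83.3% of those of the other members. None of the searched motifs contains another.

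In the fatty acid branch 7 of 9 members had a negative difference in hypoxia with non-targeting siRNA. Of the 9, 4 were called lower, where 8.95% of all genes were. ELOVL6, which extends palmitate to stearate, measured 6.67, 6.34 and 5.83 in hypoxia with HIF-1A siRNA, 7.10, 6.68 and 7.56 with HIF-2A siRNA, and 7.02, 6.42 and 6.79 with non-targeting siRNA, against 8.27, 8.02 and 8.02 in normoxia. FASN, the fatty acid synthase, measured 9.83, 9.59 and 9.57 with HIF-1A siRNA, 9.17, 9.07 and 9.11 with HIF-2A siRNA, and 9.21, 9.08 and 9.03 with non-targeting siRNA, against 10.00, 10.04 and 9.98 in normoxia. The hypoxic ELOVL6 values with non-targeting siRNA overlapped those of each HIF siRNA group. Those with HIF-1A siRNA lay all below those with HIF-2A siRNA, narrowly (6.67 against 6.68). The FASN values with HIF-1A siRNA stood between the other hypoxic arrays and normoxia with no overlap on either side. With non-targeting siRNA, ELOVL6 kept 39.0% (adjusted p = 0.00621) and FASN 53.6% (adjusted p = 0.00029) of the normoxic level. FADS2 and FADS1, the desaturases that make polyunsaturated fatty acids, also fell (-0.63, adjusted p = 0.0147, and -0.55, adjusted p = 0.0288). FADS2 lost its call without hypoxia non-targeting replicate 3, normoxia replicate 1 or normoxia replicate 3 (adjusted p = 0.0589, 0.0507 and 0.0641).

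The remaining fatty acid members were not called in hypoxia. SCD, the main oxygen-using desaturase that makes oleate, measured 10.19, 11.06 and 10.59 with HIF-1A siRNA, 11.37, 11.38 and 11.56 with HIF-2A siRNA, and 11.66, 11.47 and 11.39 with non-targeting siRNA in hypoxia, against 11.57, 11.37 and 11.35 in normoxia. Hypoxic and normoxic values with non-targeting siRNA overlapped (difference 0.08, 95% bounds -0.33 and 0.48), and the 3 arrays with HIF-1A siRNA were below all others. ACLY, which supplies cytosolic acetyl-CoA from citrate to both branches, measured 10.37, 10.50 and 10.05 with HIF-1A siRNA, 10.97, 10.81 and 10.92 with HIF-2A siRNA, and 11.09, 11.00 and 10.91 with non-targeting siRNA in hypoxia, against 10.76, 10.75 and 10.77 in normoxia. Its hypoxic values with non-targeting siRNA were all above normoxia without a call (0.24, adjusted p = 0.226), and the call was gained under quantile normalization (0.35, adjusted p = 0.0104), cyclic loess (0.39, adjusted p = 0.00428) and median centring (0.30, adjusted p = 0.0428), over 0.00428 to 0.402 in 21 alternatives. ACSS2, which activates acetate (-0.36, adjusted p = 0.124), ACACA, the acetyl-CoA carboxylase (-0.34, adjusted p = 0.341), and SCD5, a second stearoyl-CoA desaturase (-0.30, adjusted p = 0.0815), were not called. ACSS2 was called lower with array weights (-0.39, adjusted p = 0.0116) and in a fit of the compared groups alone (-0.36, adjusted p = 0.0345), over 0.0116 to 0.316 in 21 alternatives. ACACA was called lower with array weights (-0.40, adjusted p = 0.0342), over 0.0342 to 0.702. With those settings the members lower in hypoxia numbered 19 with array weights and 18 in the fit of the compared groups alone, against 16.

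Oxygen use by the enzymes was set beside the response. Of the 7 measured members whose enzymes consume molecular oxygen (SQLE, MSMO1, SC5D, SCD, SCD5, FADS1 and FADS2), 4 were lower in hypoxia with non-targeting siRNA, with a median of -0.55. Of the other 21 members, which include the 5 regulators and transport genes, 12 were lower, with a median of -0.49. Over all genes 8.95% were called lower. Markers of dividing cells were mixed, with 5 measured of 6 listed. CCNA2 (-0.81, adjusted p = 0.0119) and MCM2 (-0.98, adjusted p = 0.00055) were called lower in hypoxia. CCNB1 (-0.62, adjusted p = 0.061), TOP2A (-0.11, adjusted p = 0.866) and MKI67 (0.12, adjusted p = 0.852) were not called. The mean level of those 5 markers on an array ran from 9.75 to 10.13 in hypoxia with non-targeting siRNA, against 10.32 to 10.45 in normoxia, and their part in the falls was not tested. Of the 9 glial markers 2 were lower in hypoxia, NES (-0.41) and S100B (-0.63). With HIF-1A siRNA against non-targeting siRNA in hypoxia, S100B alone of these markers was called. It was higher (0.85, adjusted p = 0.0029), where 0.857% of all genes were called higher.

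**Figure D2:**
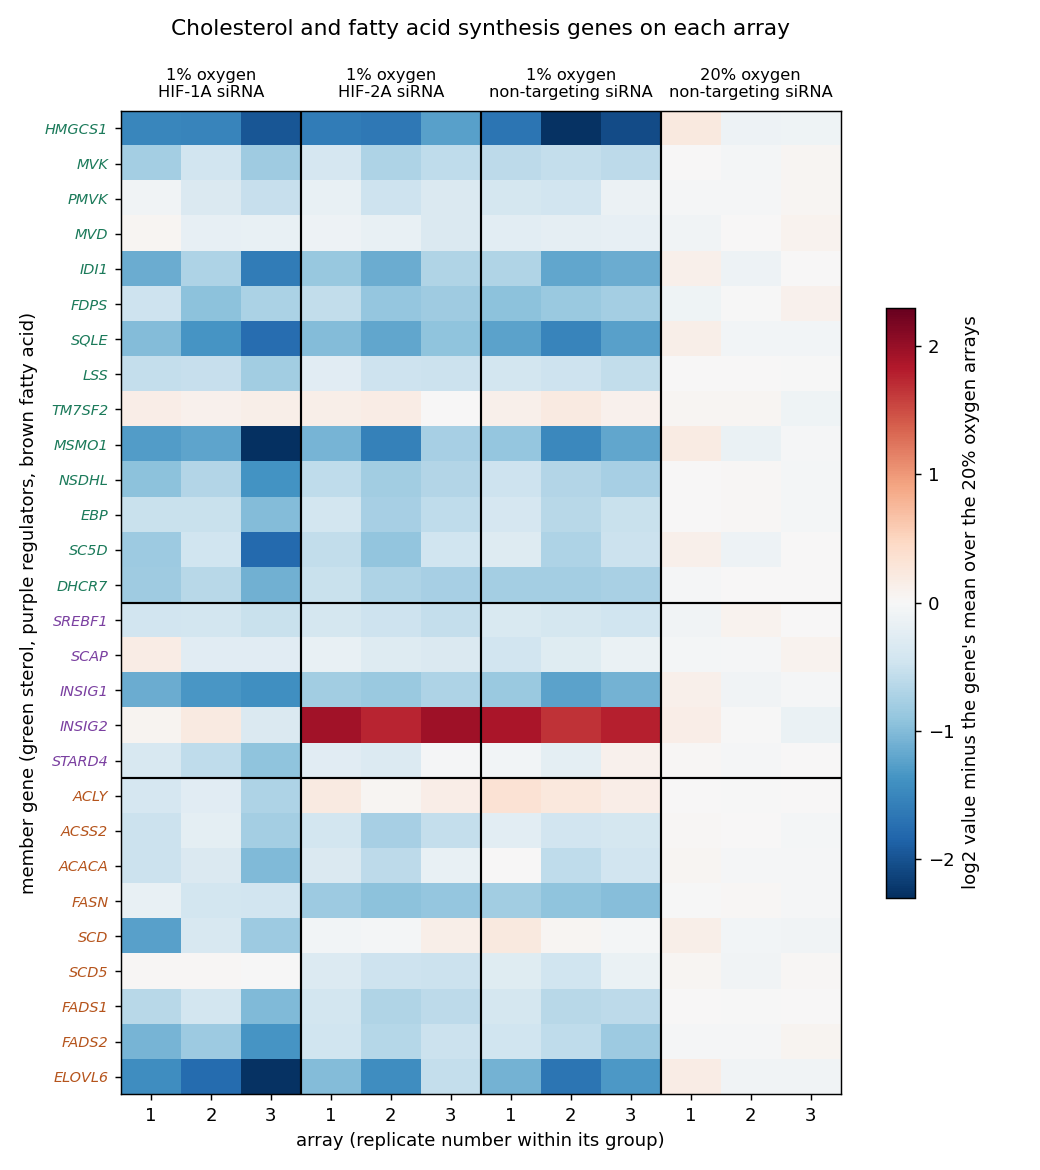
Log2 value of each measured member on each array minus that member's mean over the normoxia arrays (colour, blue lower and red higher), with 12 arrays in 4 groups across and members by role down. The blue rows of HMGCS1, SQLE, MSMO1, INSIG1 and ELOVL6 run through all 3 hypoxic groups, and the red of INSIG2 is absent with HIF-1A siRNA.

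On the deposited scale FASN was the single member that fell in hypoxia and was called higher with HIF-1A siRNA. Against non-targeting siRNA in hypoxia, 4 of 28 members were lower (INSIG2, SCD, ACLY and STARD4) and 1 was higher (FASN), where 10.2% of all genes were called lower and 0.857% higher. Of the 16 members that fell in hypoxia, 0 were called lower with HIF-1A siRNA and the median difference was -0.14, with 0.12 after quantile normalization, 0.11 after cyclic loess and -0.01 after median centring. In limma 3 of those 16 had an unadjusted p under 0.05, as did 4357 of all genes (30.6%). In the sterol branch 0 of 14 members were called in either direction as deposited, and 1 had an unadjusted p under 0.05. HMGCS1 was called higher after quantile normalization (0.53, adjusted p = 0.0389) and cyclic loess (0.52, adjusted p = 0.0438). Without HIF-1A siRNA replicate 2, NSDHL (-0.51, adjusted p = 0.0334) and SC5D (-0.81, adjusted p = 0.0496) were called lower. All comparisons of an siRNA with hypoxic non-targeting cells share the 3 arrays that also enter hypoxia against normoxia, so a low array there widens one difference and narrows the other. The values against normoxia are therefore given beside them.

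INSIG2 lost its hypoxic rise. It was 3.45-fold lower with HIF-1A siRNA than with non-targeting siRNA (difference -1.79, SE 0.14, adjusted p = 0.0001) and differed from normoxia by -0.02, with 95% bounds of -0.33 and 0.30. Under quantile normalization the difference from normoxia was 0.41 (adjusted p = 0.0119) and under cyclic loess 0.40 (adjusted p = 0.011), over 0.011 to 0.946 in 21 alternatives. FASN was 1.47-fold higher with HIF-1A siRNA than with non-targeting siRNA (difference 0.56, SE 0.10, adjusted p = 0.00681), in 3 of 3 arrays. FASN with HIF-1A siRNA was still below normoxia by -0.34 (adjusted p = 0.0201), but that difference turned to 0.06 under quantile normalization (adjusted p = 0.643) and under cyclic loess (adjusted p = 0.648), over 0.00628 to 0.648 in 21 alternatives. It also lost its call without HIF-1A siRNA replicate 2 or 3 or any 1 normoxia array (adjusted p = 0.0523 to 0.066).

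SCD, ACLY and STARD4 had not fallen in hypoxia and were lower with HIF-1A siRNA. SCD kept 53.8% of its hypoxic non-targeting level (difference -0.89, SE 0.18, adjusted p = 0.014), and lost the call without hypoxia non-targeting replicate 1 (-0.82, adjusted p = 0.0716). ACLY kept 61.9% (difference -0.69, SE 0.12, adjusted p = 0.0059). A fit of the hypoxic HIF-1A siRNA and non-targeting arrays alone ended the calls of FASN (adjusted p = 0.109), SCD (0.122), ACLY (0.0975) and STARD4 (0.156), and INSIG2 kept its call in all 21 alternatives. STARD4 measured 9.34, 9.13 and 8.80 with HIF-1A siRNA and 9.45, 9.40 and 9.69 with HIF-2A siRNA, against 9.66, 9.49 and 9.81 with non-targeting siRNA in hypoxia, and kept 67.7% (difference -0.56, SE 0.14, adjusted p = 0.0318). Its values with HIF-1A siRNA lay below all others, yet the call was lost without hypoxia non-targeting replicate 1 (adjusted p = 0.114) or 3 (0.0967), without HIF-1A siRNA replicate 3 (-0.42, adjusted p = 0.101), and without normoxia replicate 2 (0.0516) or 3 (0.0526). All 3 genes were also below normoxia with HIF-1A siRNA, SCD by -0.82, STARD4 by -0.62 and ACLY by -0.45, on the deposited scale. After quantile normalization STARD4 was at -0.20 (adjusted p = 0.153) and ACLY at -0.16 (0.124). After cyclic loess STARD4 was at -0.22 (0.12), ACLY at -0.14 (0.168) and SCD at -0.55 (0.0511). Over 21 alternatives the adjusted p ranged from 0.00406 to 0.153 for STARD4, 0.00654 to 0.168 for ACLY and 0.00151 to 0.0511 for SCD. ACLY also lost the call in the fit of those groups alone (0.0557) and without normoxia replicate 1 (0.0517). FADS2 (-0.46, adjusted p = 0.0563), ELOVL6 (-0.46, adjusted p = 0.235), SC5D (-0.52, adjusted p = 0.22), MSMO1 (-0.44, adjusted p = 0.334) and NSDHL (-0.35, adjusted p = 0.162) did not pass, and neither did SCD5 (0.31, adjusted p = 0.0696) or HMGCS1 (0.34, adjusted p = 0.239).

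The scale of the arrays bears on this comparison. The median difference of all genes between hypoxia with HIF-1A siRNA and normoxia was -0.122 on the deposited scale, 0.081 after quantile normalization, 0.033 after cyclic loess and 0.058 after median centring. The median of the 28 members for HIF-1A siRNA against non-targeting siRNA was -0.14 as deposited, but 0.12 after quantile normalization, 0.11 after cyclic loess and -0.02 after median centring. The members' split of 4 lower and 1 higher became 3 lower and 3 higher after quantile normalization, with HMGCS1 (0.53, adjusted p = 0.0389 in a range of 0.0389 to 0.475) and SCD5 (0.50, adjusted p = 0.012) called higher and STARD4 no longer called (-0.31, adjusted p = 0.0713). Over all genes 1451 lower and 122 higher calls became 1124 and 726. For hypoxia against normoxia with non-targeting siRNA, 1274 lower and 480 higher calls over all genes became 1200 and 946, and the members' 16 and 1 became 15 and 2. Without hypoxia non-targeting replicate 1 the count of members lower with HIF-1A siRNA was 2, and without HIF-1A siRNA replicate 2 it was 7. Markers of dividing cells averaged 9.21 to 9.83 on the HIF-1A siRNA arrays, against 9.75 to 10.13 with non-targeting siRNA in hypoxia, with 0 of 5 called lower, and their part was not tested.

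No measured member was called with HIF-2A siRNA. Against non-targeting siRNA in hypoxia limma called 0 of 28 members, and 2 had an unadjusted p under 0.05, where 0.00703% of all genes were called lower, 0% were called higher and 502 genes had an unadjusted p under 0.05. The 2 were HMGCS1, at 0.50 (95% bounds 0.09 and 0.92, unadjusted p = 0.0219), and INSIG1, at 0.27 (0.01 and 0.53, unadjusted p = 0.0439), and the adjusted p of both was 1. HMGCS1, SQLE (0.29) and INSIG1 had all 3 values above those with non-targeting siRNA, as did 4.46% of all genes, and 0 members had all 3 below, as did 4.90%. For INSIG2 the difference was 0.11, with bounds of -0.20 and 0.43, and for FASN it was 0.01, with bounds of -0.20 and 0.23. The median over the 16 members that fell in hypoxia was 0.08.

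**Figure D3:**
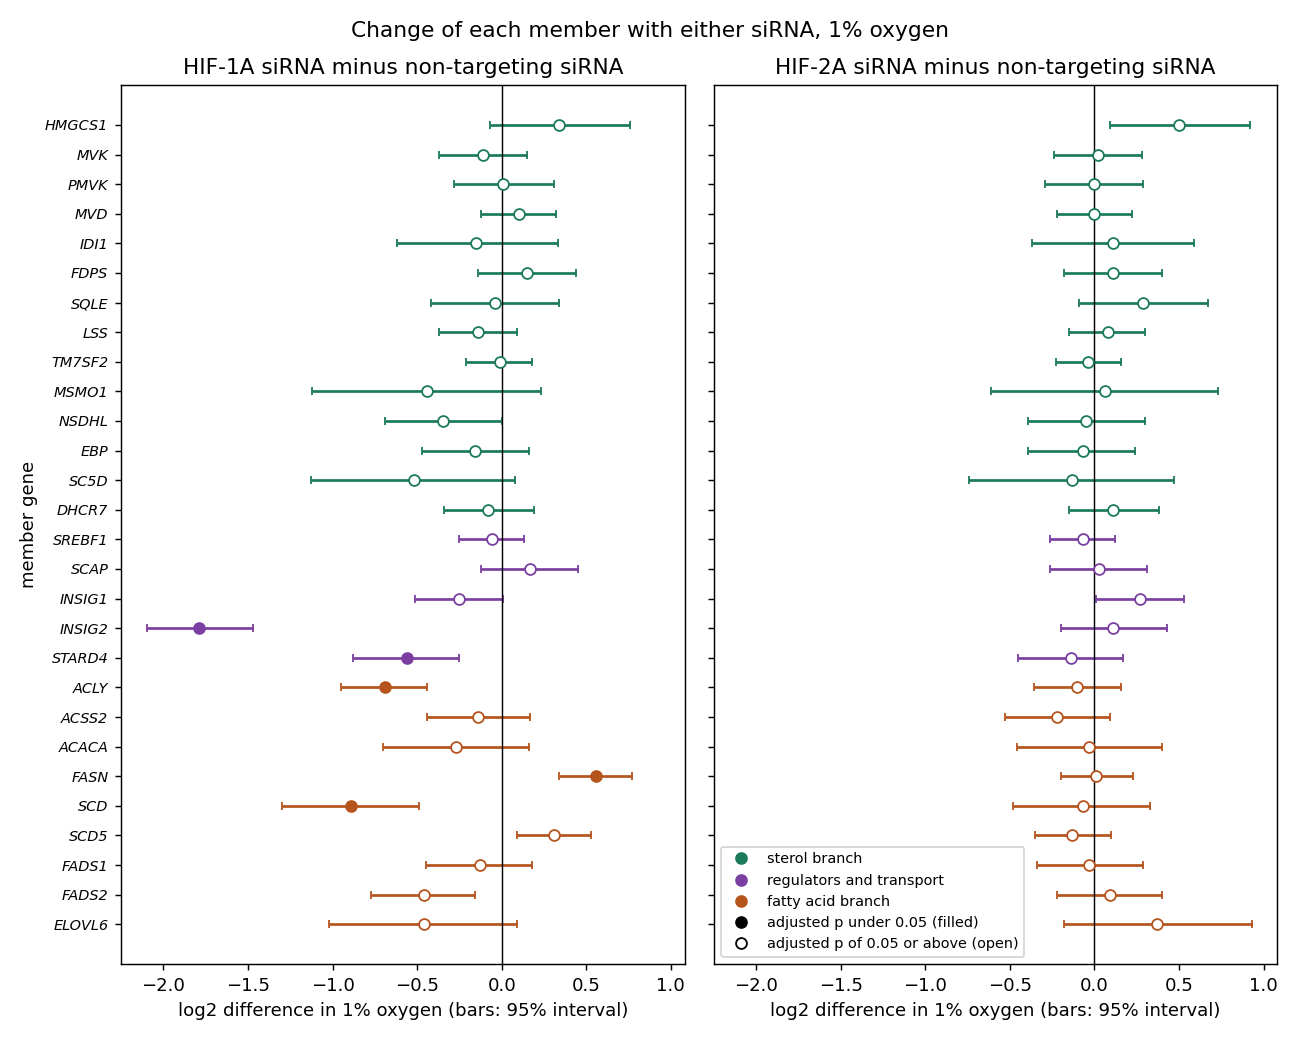
Log2 difference of each measured member between an siRNA and non-targeting siRNA in 1% oxygen (horizontal axes), with 95% intervals, HIF-1A siRNA on the left and HIF-2A siRNA on the right. With HIF-1A siRNA, INSIG2, SCD, ACLY and STARD4 are filled left of 0 and FASN right of it, and with HIF-2A siRNA no point is filled.

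On the deposited scale both siRNA groups stayed below normoxia for the members that had fallen. In hypoxia with HIF-1A siRNA 22 of 28 members were below normoxia and 0 above, where 30.4% of all genes were called lower and 4.67% higher, and with HIF-2A siRNA 18 were below and 1 above, where 6.79% were called lower and 2.85% higher. All 16 members that fell with non-targeting siRNA were called lower in both on that scale. Under quantile normalization with HIF-1A siRNA, FDPS (-0.29, adjusted p = 0.153), LSS (-0.20, 0.107), EBP (-0.23, 0.0556), SREBF1 (-0.04, 0.787) and FASN (0.06, 0.643) lost that call. With HIF-2A siRNA, LSS (-0.26, adjusted p = 0.0954) and SREBF1 (-0.32, 0.104) lost it under the same normalization. HMGCS1 differed from normoxia by -1.66 with HIF-1A siRNA and by -1.50 with HIF-2A siRNA, against -2.0 with non-targeting siRNA. SQLE differed by -1.37, -1.04 and -1.33, and ELOVL6 by -1.82, -0.98 and -1.36, in the same order of groups. These 3 comparisons share the normoxia arrays. INSIG2 was the 1 member above normoxia with HIF-2A siRNA (1.88, adjusted p = 2.7e-05). After quantile normalization the HIF-1A siRNA group had 12 members below and 3 above normoxia, the 3 being INSIG2, TM7SF2 (0.40, adjusted p = 0.0275) and SCD5 (0.30, adjusted p = 0.0453), and the split over all genes was 2082 lower and 2241 higher, where the deposited scale gave 4322 and 664. For HIF-2A siRNA against normoxia the split over all genes was 903 lower and 768 higher after quantile normalization and 967 and 405 as deposited. For HIF-2A siRNA the count below normoxia was 7 without HIF-2A siRNA replicate 2, normoxia replicate 1 or normoxia replicate 3, 8 without normoxia replicate 2 and 11 without HIF-2A siRNA replicate 3. With HIF-2A siRNA, HMGCS1, FDPS, SQLE, DHCR7, INSIG1 and FASN kept the call below normoxia, and INSIG2 the call above it, in all 21 alternatives.

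The siRNAs were also compared directly. With HIF-1A siRNA 5 members were lower than with HIF-2A siRNA, where 8.53% of all genes were, and 2 were higher, where 0.899% were. INSIG2 differed by -1.90 (adjusted p = 7.1e-05), SCD by -0.82 (adjusted p = 0.0229), ACLY by -0.59 (adjusted p = 0.0145), FADS2 by -0.56 (adjusted p = 0.0346) and INSIG1 by -0.52 (adjusted p = 0.0252). ELOVL6 differed by -0.84 without a call (adjusted p = 0.0598). It was called without HIF-1A siRNA replicate 1 (0.0348), without HIF-2A siRNA replicate 2 (0.032) and with the filter on dim probe sets. FASN was higher by 0.54 (adjusted p = 0.00887) and SCD5 by 0.44 (adjusted p = 0.0261). SCD and SCD5, which catalyse the same desaturation, differed in opposite directions, with SCD5 at 7.22, 7.23 and 7.18 with HIF-1A siRNA, against 6.88, 6.72 and 6.71 with HIF-2A siRNA. No sterol enzyme was called in this comparison, 0 of 14 also at an unadjusted p under 0.05, where 4590 of all genes (32.3%) were. After quantile normalization 3 members were lower and 3 higher, and the split over all genes was 981 lower and 799 higher, where the deposited scale gave 1214 and 128. The count of members lower was 2 without HIF-1A siRNA replicate 3 and 1 without HIF-2A siRNA replicate 1 or 3, and in each of those fits 1 member was higher. INSIG2 kept its call in all 21 alternatives, and FASN in all but the fit of these groups alone (adjusted p = 0.11). That fit also ended the calls of SCD (0.13), ACLY (0.121), FADS2 (0.141), INSIG1 (0.118) and SCD5 (0.124). SCD (0.0753 to 0.102) and SCD5 (0.0604 to 0.111) lost the call without HIF-1A siRNA replicate 3 or HIF-2A siRNA replicate 1 or 3. FADS2 and INSIG1 lost theirs without the same arrays and under quantile normalization (0.0932 and 0.104). ACLY lost it without HIF-2A siRNA replicate 1 or 3 (0.0708 and 0.0639).

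**Figure D4:**
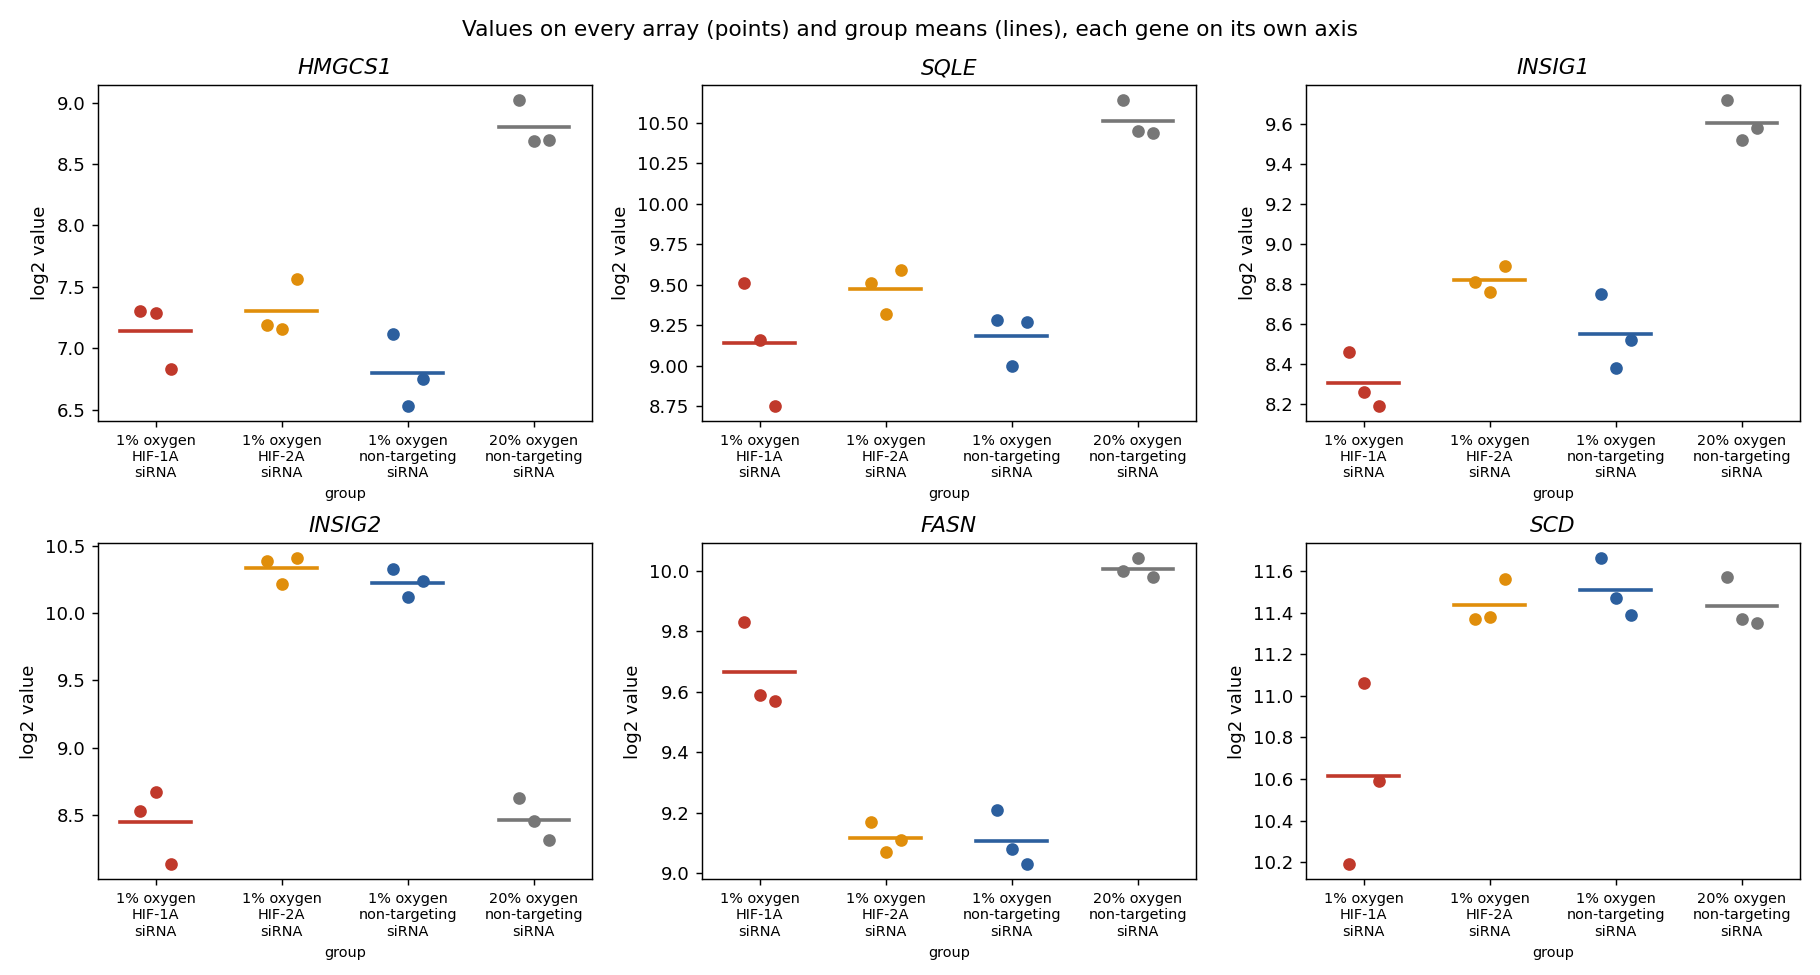
Log2 values of HMGCS1, SQLE, INSIG1, INSIG2, FASN and SCD on every array (points) with group means (lines), for hypoxia with HIF-1A siRNA, HIF-2A siRNA and non-targeting siRNA and for normoxia with non-targeting siRNA, each gene on its own axis. HMGCS1, SQLE and INSIG1 are low in all hypoxic groups, INSIG2 is high in hypoxia except with HIF-1A siRNA, FASN with HIF-1A siRNA lies between, and SCD is low with HIF-1A siRNA alone.

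Other genes of the same pathways also moved downward in hypoxia. Of 21 further sterol pathway genes measured, 7 were lower with non-targeting siRNA and 0 higher, with a median of -0.28, where 8.95% of all genes were lower and 3.37% higher, with a median of -0.03. Of 28 further fatty acid and glycerolipid genes measured, 8 were lower and 0 higher, with a median of -0.17. The 10 with the largest differences were led by TMEM97, a sterol-regulated membrane protein that binds NPC1 (-1.32, SE 0.18, adjusted p = 0.00134), and SOAT1, which esterifies cholesterol for storage (-1.20, SE 0.24, adjusted p = 0.00875). PDSS1, which makes the isoprenoid tail of coenzyme Q (-0.86), LBR, a second sterol reductase (-0.75), and MYLIP, a ligase that degrades the LDL receptor (-0.59), followed on the sterol side. On the fatty acid side they were ACSL1, an acyl-CoA synthetase (-0.94), HACD2, a dehydratase of the elongation cycle (-0.85), LPIN1, a phosphatidate phosphatase (-0.81), and the elongases ELOVL4 (-0.80) and ELOVL2 (-0.56). ELOVL4, LBR and ELOVL2 lost their calls without single arrays: ELOVL4 without hypoxia non-targeting replicate 2 or 3 or any 1 normoxia array (adjusted p = 0.0568 to 0.139), LBR without hypoxia non-targeting replicate 2 or normoxia replicate 1 or 3 (0.0597 to 0.0909), and ELOVL2 without any 1 of the 6 arrays compared, HIF-1A siRNA replicate 2 or HIF-2A siRNA replicate 1 or 3 (0.0518 to 0.158). With HIF-1A siRNA 2 of the 21 and 4 of the 28 were lower than with non-targeting siRNA and 0 were higher, where 10.2% of all genes were lower and 0.857% higher. With HIF-2A siRNA limma called 0 of either list, and 0 had an unadjusted p under 0.05.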

How the data were processed

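RNA of LN229 cells was labelled with an Affymetrix whole-transcript assay and hybridised to 12 arrays, 3 in each of 4 groups taken from the labels. The log2 expression values were deposited by the authors, 1 per probe set and array for 22011 probe sets, and were made with Partek and hg18 per the submitters' processing notes. Base 2 was inferred from the range of the values. How background correction, summarization and normalization were done was not stated in the labels or notes, and a difference in range between whole arrays would carry into every difference. Intensity before processing was not used, and the number of arrays limits the precision.

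The platform annotation pairs 14432 probe sets with 1 symbol, 2408 with several and 5171 with none here. Each of 14232 genes was represented by its probe set of highest mean value. Group means were fitted with limma 3.58.1 (R 4.3.3) to all probe sets and arrays, with eBayes and Benjamini-Hochberg adjustment over the 14232 genes. The procedure was tested on simulated data. Tables were joined with data.table (version 1.17.8) and pandas 2.3.3 (Python 3.11.15) and plotted with matplotlib 3.10.9. Alternatives were quantile normalization, cyclic loess, median centring, a filter on dim probe sets (mean above 4.77), a fit of the compared groups alone, array weights, a replicate block, the probe set with the largest interquartile range, a variance trend with robust prior, and each array left out in turn.

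The members and lists were chosen with earlier results of these data known. All measured members are named, with every array's value for the 6 largest called falls and up to 3 largest rises in hypoxia, the members called with an siRNA and the SREBP regulators, and further members were given in full after their values were seen. Of the other pathway genes, the 10 called in hypoxia with the largest difference are named. Applying the alternatives to the medians, to the other pathway genes and to members against normoxia or between siRNAs was chosen after seeing the data. Promoter windows are RefSeq's for GRCh38.p14 and were searched on both strands. The lists of neuron and oligodendrocyte markers had 0 of 3 and 0 of 4 measured genes called lower in hypoxia. No protein sequence was used.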

Additional observations from a re-analysis of the deposited data

How the results depend on the processing

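INSIG2 kept both its hypoxic rise and its fall with HIF-1A siRNA in all 21 alternatives, and 10 of the 17 members called in hypoxia against normoxia with non-targeting siRNA kept their calls in all of them. Over the 6 comparisons 30 of 70 member calls were kept in every alternative, and a member's difference changed sign 135 times. The sign changes that involved a call were with HIF-1A siRNA against normoxia: FASN at 0.06 under quantile normalization and 0.06 under cyclic loess, against -0.34, and INSIG2 at 0.41 and 0.40, against -0.02. The 3 arrays a group limit the precision of every call.

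Quantile normalization gave 2 members higher in hypoxia, and so did cyclic loess and median centring, against 1 as deposited. For HIF-1A siRNA against non-targeting siRNA they gave 3, 3 and 2 higher, against 1. For HIF-1A siRNA against normoxia they gave 3, 2 and 1 higher, against 0, and quantile normalization and cyclic loess gave 12 and 13 lower, against 22. Cyclic loess gave 2 members higher with HIF-2A siRNA than in normoxia, against 1. Quantile normalization and cyclic loess each gave 3 members lower with HIF-1A than with HIF-2A siRNA, against 5. A fit of the compared groups alone gave 1 lower and 0 higher for HIF-1A siRNA against non-targeting siRNA, where all-gene counts were 134 and 3, against 1451 and 122, and 1 lower and 0 higher for HIF-1A against HIF-2A siRNA, with 123 and 4 over all genes, against 1214 and 128. The median hypoxic difference under quantile normalization was -0.48 in the sterol branch, -0.21 in the fatty acid branch and -0.35 over all measured members, against -0.61, -0.36 and -0.51, and cyclic loess gave -0.50 in the sterol branch and -0.34 over all members. For HIF-1A siRNA against non-targeting siRNA the members' median of -0.14 became 0.12 and 0.11. Array weights gave 1 member higher for HIF-1A against HIF-2A siRNA, against 2, and moved the counts over all genes to 2794 lower and 945 higher in hypoxia, against 1274 and 480, and to 735 and 56 for HIF-1A siRNA against non-targeting siRNA. The cause of these shifts was not tested.

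Leaving out each array in turn, the members lower ranged from 10 to 16 for hypoxia against normoxia, 2 to 7 for HIF-1A siRNA against non-targeting siRNA, 17 to 23 for HIF-1A siRNA and 7 to 19 for HIF-2A siRNA against normoxia, and 1 to 7 for HIF-1A against HIF-2A siRNA, where the members higher ranged from 1 to 2. The median hypoxic difference of the fatty acid branch ranged from -0.51 to -0.33. No member was called with HIF-2A siRNA against non-targeting siRNA in any of the 21 alternatives.

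Pairing by replicate number was not apparent in the deposited values. Deviations of same-numbered arrays correlated at -0.488 to 0.597, others at -0.64 to 0.623, and 4 of 12 arrays correlated best with their own number. These deviations also carry differences in range between whole arrays, so they cannot show whether the numbers mark pairs. With the number as a replicate block the members lower were 16 in hypoxia, 3 with HIF-1A siRNA against non-targeting siRNA (STARD4 at adjusted p = 0.0506) and 17 with HIF-2A siRNA against normoxia (MSMO1 at 0.052). It changed no other member's call.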
